A study of Homo sapiens with 8 samples.

Results

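The 10 genes described here are CD36 and genes that act beside it in the uptake and activation of long-chain fatty acids: the intracellular carriers FABP3, FABP5 and FABP7, the receptor SCARB1, the lipase LPL, the acyl-CoA synthetases ACSL1, ACSL3 and ACSL4, and the nuclear receptor PPARG. They were taken from the 20046 genes that have an array probe carrying 1 gene symbol, and were chosen by measured values, the drop of CD36 signal between these same groups of arrays, together with genes of the same pathway. Differences of the 10 genes between the groups are therefore a description, with no test. Of the 10 genes, 9 have a probe and 8 have a probe that was detected on at least 1 array. ACSL3 has no probe of its symbol and was not analysed here.

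A375 is a human melanoma cell line. The study asked what the surface peptidase CD10 (encoded by MME) does to these cells and compared CD10-A375, transfected stably with a plasmid that carries the open reading frame of human CD10, with mock-A375, transfected with the empty vector. Both groups went through selection with G418, and the CD10-A375 cells were also sorted for CD10 on their surface. RNA of 4 biological replicates of each group was hybridised to Illumina bead arrays, 8 arrays in all, but whether a group came from several transfections is not described. The spread below is that between cultures, and effects of CD10 cannot be told apart from differences between the transfected populations.

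Long-chain fatty acids reach the cytosol partly through CD36, a scavenger receptor of the plasma membrane that also binds oxidised lipoproteins and thrombospondin. LPL frees fatty acids from lipoprotein triglyceride outside the cell, fatty acid-binding proteins carry them inside it, and long-chain acyl-CoA synthetases couple them to coenzyme A, which traps them for storage, oxidation or phospholipid synthesis. PPARG is a fatty acid-sensing transcription factor, best known from fat cells and macrophages, where CD36, LPL and ACSL1 are among its targets.

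The arrays agreed closely within a group, with correlations of 0.991 to 0.993 over the tested probes against 0.962 to 0.967 between groups, and the number of probes detected ran from 15930 to 16937 per array. A probe was detected where its detection p, its rank among negative control probes, was 0.01 or less. None of the 4 MME probes was detected on any array, with a lowest detection p of 0.114. The plasmid holds the open reading frame alone and where in the transcript these probes lie is not known here, so they do not check the labels. The study itself found CD10 protein in CD10-A375 by flow cytometry and Western blot, and none on mock-A375 by flow cytometry. SOX10 and MITF, which define the melanocyte lineage, were detected on all 8 arrays, while the pigment genes PMEL, MLANA, TYR and TYRP1 were not detected on any. Over the 19550 tested probes, limma called 7162 at an adjusted p under 0.05, which is 36.6% of them.

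CD36 was detected in mock-A375 only. Its first probe gave log2 signals of 9.79, 9.74, 9.79 and 9.60 on the 4 mock-A375 arrays. On the 4 CD10-A375 arrays the log2 signals were 4.57, 4.51, 4.45 and 4.42, at the bottom of the scale, where the lowest signal of a detected probe was 5.62 to 5.79. In the deposited, background-subtracted units the mock-A375 arrays read 903, 804, 935 and 765, and all 4 CD10-A375 arrays were below 0, from -21.3 to -9.35. CD36 was therefore at least 16.3-fold lower in CD10-A375, a bound that sets the mean of the mock-A375 arrays against the lowest detected signal of each CD10-A375 array. The fitted log2 difference of -5.24 (SE 0.10, 4 arrays a group) depends on the offset of 16 that was added before taking logs.

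A second CD36 probe, annotated to another transcript record, had the same pattern. Which CD36 transcripts each probe binds was not tested. Its log2 signals were 9.12, 9.32, 9.24 and 8.98 in mock-A375 and 4.59, 4.39, 4.51 and 4.47 in CD10-A375, so that the groups did not overlap, and its bound was at least 11.02-fold. The third CD36 probe was not detected on any of the 8 arrays and its signals lay between -24.5 and -9.79, within the range from -26.3 to -7.82 that the other probes had in CD10-A375.

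**Figure D1:**
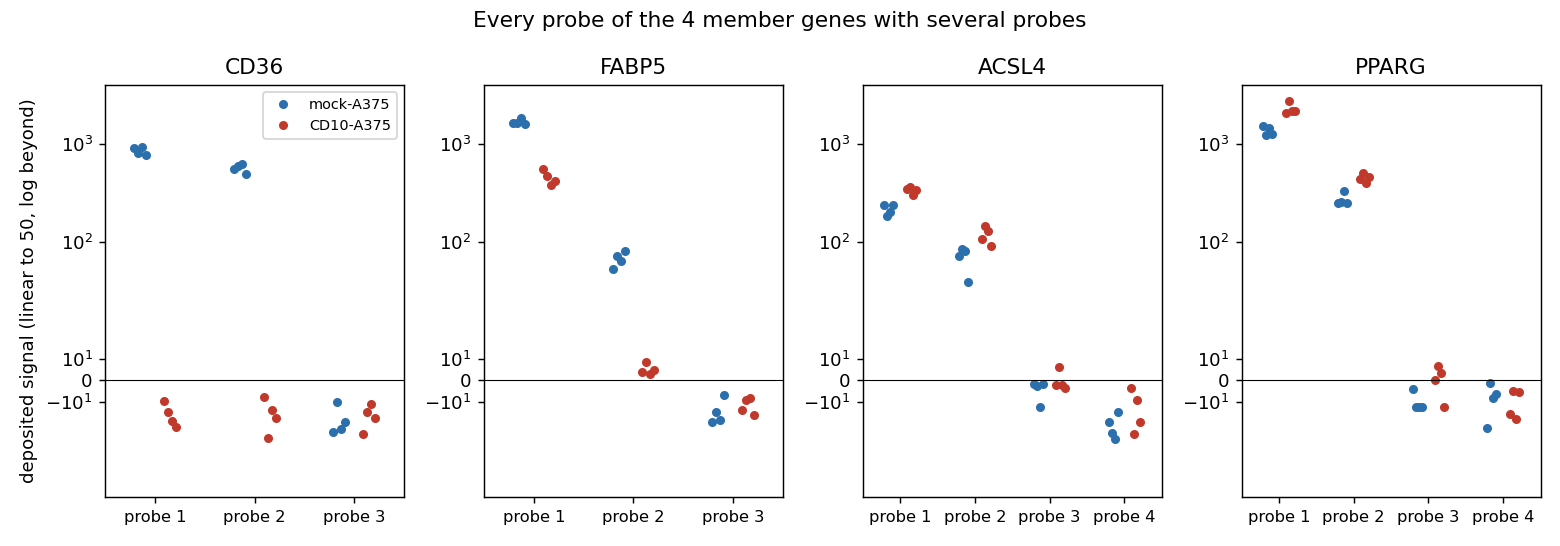
Deposited signal of every probe of CD36, FABP5, ACSL4 and PPARG, in background-subtracted units on an axis that is linear up to 50 and logarithmic beyond, with 1 point per array (4 mock-A375, blue, and 4 CD10-A375, red). Of the 3 CD36 probes, 2 read above 490 on every mock-A375 array and below 0 on every CD10-A375 array, and the third read below 0 on all 8.

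CD36 lies on chromosome 7, from 80602207 to 80679274 of GRCh38.p14, and RefSeq gives it 6 promoter windows of 300 bases, which run from 250 bases before a transcript start to 50 after it. The window of the most upstream start is shown because CD36 is the gene with the largest difference of the set, and because PPARG, whose signal went the other way, acts through DNA sites built from AGGTCA.
CD36 promoter, chr7:80601957-80602256, plus strand: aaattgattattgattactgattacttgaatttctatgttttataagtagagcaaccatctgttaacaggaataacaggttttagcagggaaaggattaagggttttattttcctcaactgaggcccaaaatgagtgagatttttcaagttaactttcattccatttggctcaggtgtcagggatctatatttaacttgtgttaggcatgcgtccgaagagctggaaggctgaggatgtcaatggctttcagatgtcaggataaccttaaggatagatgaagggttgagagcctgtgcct
It has no capitals, since AGGTCA was searched on both strands and would have been capitalised. None of the 6 windows of CD36 holds AGGTCA, which stands in 13.8% of the 35116 RefSeq promoter windows of this length, and none holds TTGCNNAA, a motif of C/EBP factors found in 10.5%. Some of the 6 windows of CD36 overlap each other, so they are not separate sequences. No match says only that these letters are not in these windows. A direct repeat of the first motif, with a spacer base between its copies, was also searched on both strands. It stands in 8 of the 35116 windows and in none of the 6 windows of CD36.

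The genes beside CD36 on the chromosome gave little signal. GNAI1, HGF and CACNA2D1 had probes that were not detected on any array, and MAGI2 and GNAT3 had no probe of their symbol. SEMA3C, the next gene after CD36, encodes a secreted guidance protein and was detected on 2 CD10-A375 and 3 mock-A375 arrays, with a log2 difference of -0.16 (SE 0.20, limma adjusted p = 0.566).

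Among the intracellular carriers, FABP5 and FABP7 were both lower in CD10-A375. FABP5, the epidermal type that also delivers ligands to nuclear receptors, had log2 signals of 10.64, 10.76, 10.76 and 10.65 in mock-A375 at its brightest probe. In CD10-A375 these were 9.24, 8.77, 8.72 and 8.86. All 4 CD10-A375 arrays lay below all 4 mock-A375 arrays, and the signal was 3.50-fold lower (log2 difference -1.81, SE 0.09). A second FABP5 probe was detected on the 4 mock-A375 arrays only and was at least 1.57-fold lower, and the third was not detected. FABP5 has near-identical pseudogene copies, and which of them its probes also bind was not tested.

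FABP7, the brain type found in radial glia and in many melanomas, had log2 signals of 7.47, 7.50, 7.53 and 7.41 in mock-A375. They were 6.34, 6.35, 6.26 and 6.37 in CD10-A375, a 2.21-fold lower signal (log2 difference -1.15, SE 0.10) with no overlap and with every array above the detection limit. FABP3, the heart and muscle type, has 1 probe, which was not detected on any array.

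LPL, the lipase that is secreted and held on the cell surface, was 2.56-fold lower in CD10-A375. Its log2 signals were 8.95, 8.85, 8.94 and 8.95 in mock-A375 and 7.63, 7.61, 7.49 and 7.53 in CD10-A375 (log2 difference -1.36, SE 0.08). SCARB1, a receptor for high-density lipoprotein of the same family as CD36, differed far less. It read 10.40, 10.31, 10.29 and 10.35 in mock-A375 and 10.05, 10.22, 9.999 and 10.09 in CD10-A375, all log2 signals, so that the lowest mock-A375 array was just above the highest CD10-A375 array. The SCARB1 signal was 1.19-fold lower (log2 difference -0.25, SE 0.07).

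The acyl-CoA synthetases went in opposite directions. ACSL1, which is linked to triglyceride storage and oxidation, had log2 signals of 8.29, 8.26, 8.38 and 8.52 in mock-A375 and 7.89, 8.13, 7.77 and 7.96 in CD10-A375, 1.34-fold lower (log2 difference -0.43, SE 0.10). ACSL4, which prefers arachidonic acid and supplies the polyunsaturated phospholipids that take part in ferroptosis, was higher in CD10-A375. Its brightest probe read 8.57, 8.42, 8.42 and 8.58 in CD10-A375 and 7.95, 7.67, 7.72 and 7.98 in mock-A375 on the log2 scale, 1.59-fold apart (log2 difference 0.67, SE 0.09). A second ACSL4 probe also had a log2 difference of 0.67, with a wider error (SE 0.16), and the other 2 were not detected.

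PPARG was higher in CD10-A375 at both detected probes. The brightest had log2 signals of 11.11, 11.27, 11.18 and 11.18 in CD10-A375 against 10.54, 10.35, 10.41 and 10.31 in mock-A375, a 1.72-fold difference (log2 0.78, SE 0.07). The second read 8.90, 8.89, 8.79 and 8.98 in CD10-A375 and 7.99, 8.15, 8.37 and 8.02 in mock-A375, also as log2 signals, 1.69-fold apart (log2 0.76, SE 0.09). The groups did not overlap at either probe. The remaining 2 PPARG probes were not detected on any array.

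PPARG lies on chromosome 3, from 12287368 to 12434344 of GRCh38.p14. Its most upstream window is shown beside that of CD36, with AGGTCA in capitals.
PPARG promoter, chr3:12287118-12287417, plus strand: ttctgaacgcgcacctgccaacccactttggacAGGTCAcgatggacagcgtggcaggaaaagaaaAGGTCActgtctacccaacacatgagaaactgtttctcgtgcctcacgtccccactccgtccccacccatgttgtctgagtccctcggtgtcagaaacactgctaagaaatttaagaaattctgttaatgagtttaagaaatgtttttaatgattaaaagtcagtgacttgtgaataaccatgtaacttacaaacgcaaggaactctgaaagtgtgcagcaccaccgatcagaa
It holds AGGTCA 2 times, 217 and 184 bases before the transcript start. Of the 6 PPARG windows 3 hold AGGTCA, 2 of which overlap and share the same match, and 1 holds TTGCNNAA. A match is a description of the letters and not a site of binding. The direct repeat with a spacer base, searched as for CD36, stands in none of the 6 PPARG windows, so the matches above are not such repeats. Whether PPARG acts on either promoter was not tested.

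**Figure D2:**
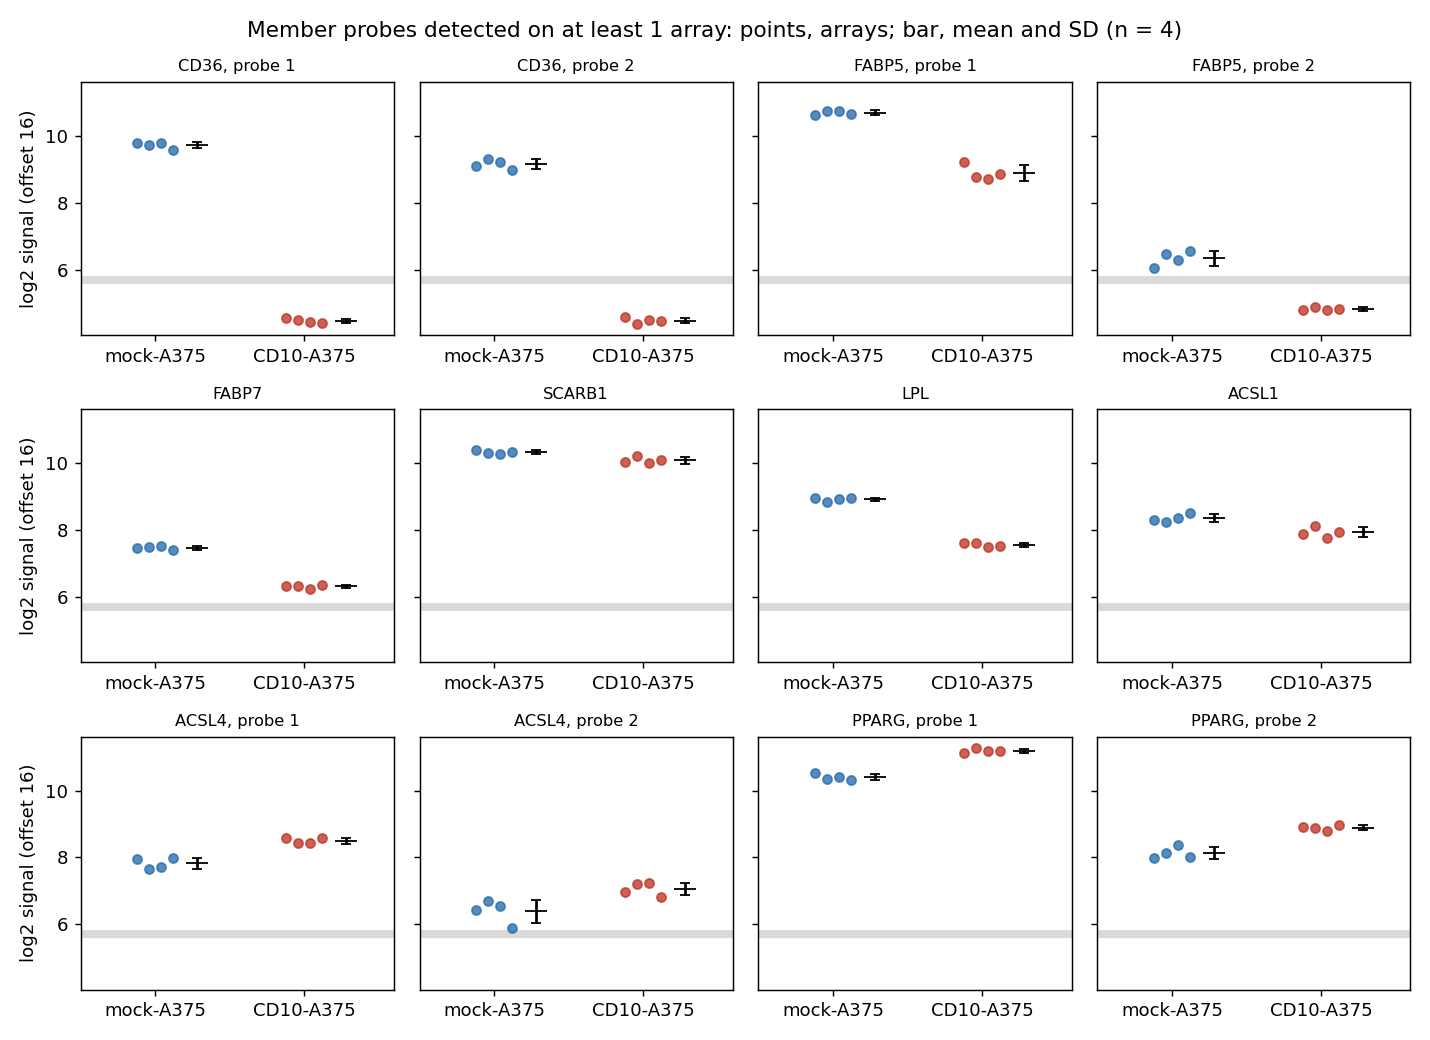
Log2 signal of the 12 detected probes of the set on each array, after background correction, quantile normalization and an offset of 16; points are arrays, bars the mean and SD of 4 arrays, and the grey band the lowest signals of detected probes, 5.62 to 5.79. CD36 and the second FABP5 probe lie below the band in CD10-A375, and the 4 probes of ACSL4 and PPARG are the ones that lie higher in CD10-A375.

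In all, 19 probes carry a symbol of the set, of which 12 were tested. The 7 others were undetected on every array, with signals from -26.8 to 6.56. All 12 tested probes were called, against 36.6% of all probes, and their groups did not overlap, against 34.6% of all probes. Nothing is read from these counts, since the rule that chose the genes used this contrast and a probe had to be detected to be tested. By gene, 6 were lower and 2 higher, where over the 11303 tested genes limma called 21.9% lower and 19.9% higher. The median log2 difference over those genes was -0.03, and their 5th and 95th percentiles were -0.71 and 0.80.

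**Figure D3:**
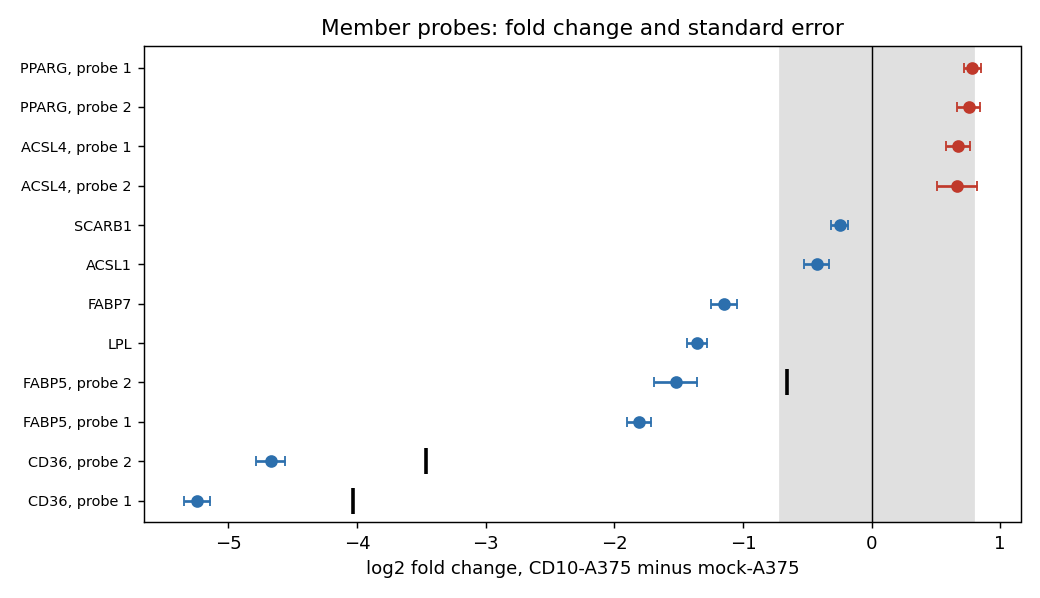
Log2 fold change of the 12 detected probes, CD10-A375 minus mock-A375, with standard errors (4 arrays a group); the grey band spans the 5th to 95th percentile of the 11303 tested genes, and black ticks mark the bound of probes undetected in CD10-A375. CD36, FABP5, LPL and FABP7 lie below the band, with the bound of the second FABP5 probe inside it, while ACSL1, SCARB1, ACSL4 and PPARG lie within it.

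Genes around the set were read from 9 lists of fatty acid handling with 196 distinct genes, of which 125 were tested, each at its brightest probe. Of these, 45 rose and 27 fell in CD10-A375 by limma at an adjusted p under 0.05, beside the 19.9% and 21.9% of all tested genes. Up to 4 genes of a list are named below, those with the largest absolute difference among the called. Their adjusted p is limma's, over the 19550 tested probes. The lists were chosen with earlier results of these arrays known. A gene detected in CD10-A375 only, or in mock-A375 only, entered the test through its signal in that group. The study had also reported TLR4, CAV1 and the marker S100A1 as higher in CD10-A375 from these same arrays. The adjusted p-values of the lists and of the markers below therefore describe these arrays and are no independent test.

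Of the other uptake and lipoprotein receptor genes, 15 of 26 were tested, 5 rose and 4 fell, with a median log2 difference of -0.04. VLDLR, a receptor that binds triglyceride-rich particles together with LPL, was detected on the 4 CD10-A375 arrays only and was at least 3.80-fold higher (adjusted p = 6.02e-12). APOE, a ligand of that receptor, rose by 1.83 on the log2 scale (SE 0.07, adjusted p = 3.64e-13), from a mean of 8.25 to 10.08. SCARB2, a lysosomal protein of the CD36 family, fell by 0.59 (SE 0.06, adjusted p = 3.33e-07). LMF1, which matures LPL in the endoplasmic reticulum, rose by 0.96 (SE 0.19, adjusted p = 0.000598) but was detected on 1 array of 8.

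Of the other binding proteins, 7 of 17 were tested, 1 rose and 3 fell, with a median of -0.18. FABP6, the ileal bile acid carrier, fell by 1.47 on the log2 scale at its brightest probe (SE 0.10, adjusted p = 2.10e-09), and both its probes were lower. ACBD7, an acyl-CoA-binding protein, was detected in mock-A375 only and was at least 1.55-fold lower (adjusted p = 1.43e-05). DBI, the main acyl-CoA-binding protein, rose by 0.26 (SE 0.06, adjusted p = 0.00125). The fall of 0.23 in ACBD6 (SE 0.09) was at the edge of the threshold, with an adjusted p of 0.0487 and groups that overlapped, and 6 of the 8 fits that left out an array lost it, those without replicates 2, 3 or 4 of either group (adjusted p up to 0.162). FABP4, the adipocyte carrier, was not detected.

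Of the other acyl-CoA synthetases and thioesterases, 11 of 21 were tested, 3 rose and 3 fell, with a median of -0.03. The cytosolic acetyl-CoA synthetase ACSS2 rose by 1.04 on the log2 scale (SE 0.06, adjusted p = 5.39e-11), at all 3 of its probes. Its mitochondrial relative ACSS1 fell by 0.77 (SE 0.11, adjusted p = 2.97e-05). ACOT9, a mitochondrial thioesterase, rose by 0.62 (SE 0.07, adjusted p = 1.39e-06) at 1 of 2 probes. ACOT1 fell by 0.61 (SE 0.12, adjusted p = 0.000665), and it has a near-identical copy, ACOT2, from which the probe may not tell it apart.

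Among the partners of PPARG, 12 of 20 were tested, 2 rose and 3 fell, with a median of 0.04. CEBPA and CEBPD, C/EBP factors that act with PPARG in fat cell formation, fell by 0.86 (SE 0.17, adjusted p = 0.000699) and 0.59 (SE 0.09, adjusted p = 2.95e-05) on the log2 scale. CEBPA was detected on 2 of the 4 CD10-A375 arrays and on all 4 mock-A375 arrays. PPARD, the widely expressed PPAR, rose by 0.59 (SE 0.16, adjusted p = 0.00673) at 1 of 2 probes, and NR1H3, the oxysterol receptor LXR alpha, rose by 0.50 (SE 0.07, adjusted p = 8.57e-06). PPARA and the coactivators PPARGC1A and PPARGC1B were not detected.

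Genes known as PPAR targets had the highest median of the 9 lists, 0.47 on the log2 scale, with 11 of 26 tested, 7 that rose and 2 that fell. PDK4, a kinase that restrains glucose oxidation, rose by 3.27 (SE 0.08, adjusted p = 4.34e-16), from a mean log2 signal of 7.48 in mock-A375 to 10.74. CIDEC, a lipid droplet fusion protein, was detected on the 4 CD10-A375 arrays only and was at least 4.19-fold higher (adjusted p = 8.78e-13), although its second probe had a log2 difference of 0.04 and was detected on 1 array of each group. PLIN2, which coats lipid droplets, rose by 1.21 (SE 0.06, adjusted p = 5.16e-12) and was higher at both probes. UCP2, a mitochondrial carrier, rose by 0.80 (SE 0.12, adjusted p = 4.74e-05). The targets that fell were TXNIP and HILPDA, with log2 differences of -0.45 and -0.18, and the fat cell genes FABP4, ADIPOQ and PLIN1 were not detected. CD36, LPL and ACSL1, lower in CD10-A375, were counted in the set and not in this list.

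Triglyceride synthesis and lipid droplet genes shared the tested genes CIDEC, PLIN2 and HILPDA with the PPAR targets. Of the 33 genes of this list 20 were tested, 9 rose and 3 fell, with a median of 0.11. LPIN2, a phosphatidate phosphatase on the way to triglyceride, rose by 1.68 on the log2 scale (SE 0.10, adjusted p = 2.13e-10), and the acyltransferase GPAT3 rose by 1.07 (SE 0.07, adjusted p = 1.70e-09).

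Of the beta-oxidation genes, 28 of 32 were tested, 14 rose and 4 fell, with a median of 0.23. Some of these genes, rises among them, are also on the list of PPAR targets. The peroxisomal oxidases went apart: ACOX2, for branched chains, rose by 1.14 on the log2 scale (SE 0.07, adjusted p = 7.24e-10) and ACOX3 fell by 0.87 (SE 0.09, adjusted p = 3.61e-07). ECI2, an enoyl-CoA isomerase, fell by 0.83 (SE 0.09, adjusted p = 8.94e-07) at 1 of 2 probes, and ETFB, which passes electrons from the mitochondrial dehydrogenases, rose by 0.65 (SE 0.07, adjusted p = 1.30e-06). ACADS, the short-chain dehydrogenase, was detected on the 4 CD10-A375 arrays only, at least 1.13-fold higher (adjusted p = 0.0169). The ACADS call was lost without CD10-A375 replicate 2 (adjusted p = 0.0701) and without mock-A375 replicate 4 (adjusted p = 0.0512).

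Around ACSL4, 13 of 18 genes of phospholipid remodelling and lipid peroxidation were tested, 5 rose and 1 fell, with a median of 0.23. MBOAT7 and LPCAT2, acyltransferases of lysophospholipids, rose by 0.61 (SE 0.09, adjusted p = 3.31e-05) and 0.54 (SE 0.10, adjusted p = 0.000221) on the log2 scale. AGPS, an enzyme of ether lipid synthesis, rose by 0.45 (SE 0.07, adjusted p = 8.66e-05). PLA2G4A, which releases arachidonic acid, was detected on 2 mock-A375 arrays and on no CD10-A375 array, with a bound of 1.01-fold lower (adjusted p = 0.00591).

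Of 17 ligands and membrane partners of CD36, 16 were tested, 4 rose and 5 fell, with a median of -0.07. TLR4, which forms complexes with CD36 in macrophages, was detected on the 4 CD10-A375 arrays only and was at least 4.97-fold higher (adjusted p = 1.49e-11). CAV1, the coat protein of caveolae, rose by 1.52 on the log2 scale (SE 0.07, adjusted p = 7.05e-12) and was higher at both probes. LYN, a kinase that couples to CD36, fell by 1.08 (SE 0.08, adjusted p = 3.94e-09), and THBS1, the ligand thrombospondin 1, fell by 0.97 (SE 0.09, adjusted p = 7.93e-08).

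**Figure D4:**
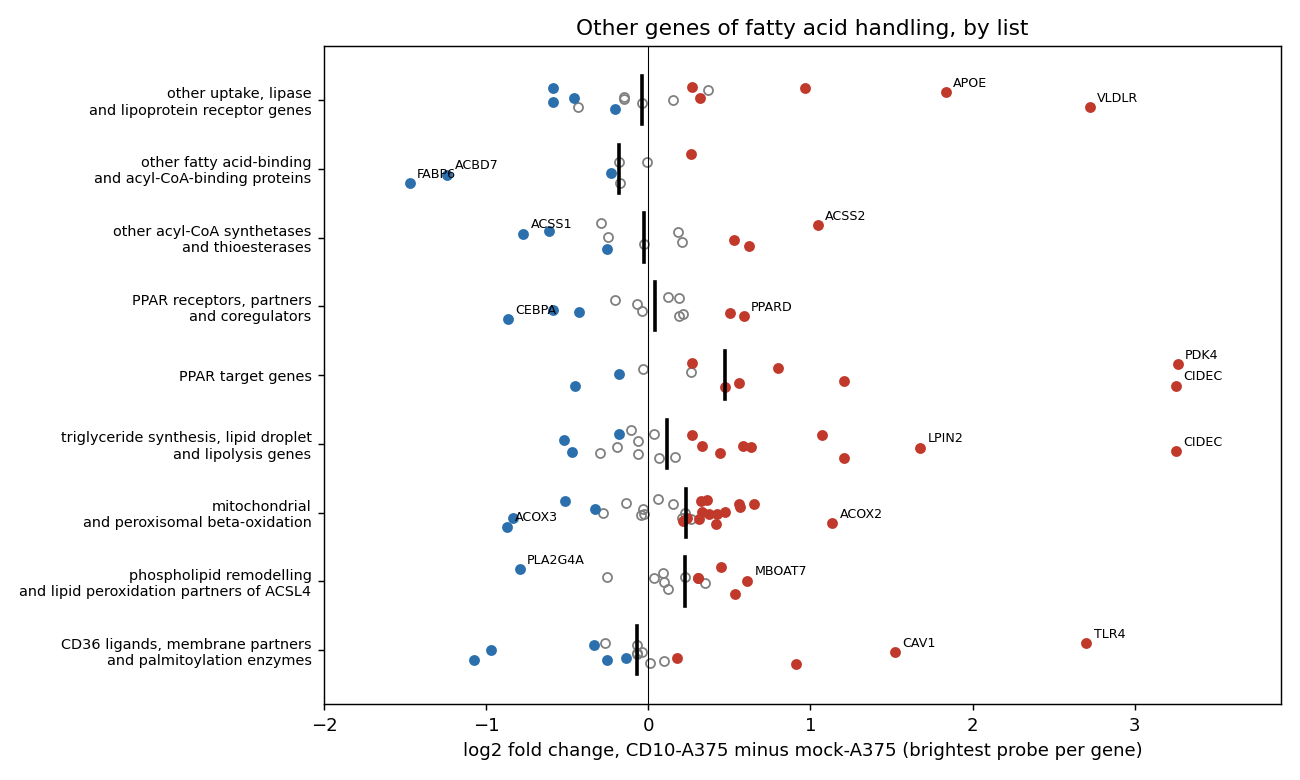
Log2 fold change, CD10-A375 minus mock-A375, of the tested genes of each list at their brightest probe; filled points passed limma's test (red higher, blue lower), open points did not, and black bars are medians. The medians run from -0.18 for binding proteins to 0.47 for PPAR targets, and TLR4, VLDLR, CIDEC and PDK4 lie between 2.70 and 3.27.

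Markers of cells that use these genes were read from the same arrays. No marker of endothelial cells was detected of 8, while 2 of 8 fat cell markers (LEP and CIDEC), 3 of 9 macrophage markers (CD14, CD68 and LYZ) and 3 of 8 fibroblast markers (COL1A2, LUM and PDGFRB) were. Summed signals of the fat cell list were 311 to 363 in CD10-A375 and 143 to 194 in mock-A375, and CIDEC is the marker of that list that passed the test. For the macrophage list the sums were 758 to 967 and 551 to 668, where LYZ rose by 1.67 on the log2 scale (SE 0.10, limma adjusted p = 1.52e-10) at 1 of 2 probes and PTPRC, ITGAM and CSF1R were not detected. For the fibroblast list the sums were 158 to 185 in CD10-A375 and 233 to 266 in mock-A375. COL1A2 and LUM fell by 0.76 (SE 0.19, limma adjusted p = 0.00354) and 0.92 (SE 0.23, limma adjusted p = 0.00384) on the log2 scale. They were detected on 1 and 2 mock-A375 arrays and on no CD10-A375 array, so both differences lie near the detection limit. The COL1A2 mean in mock-A375, 5.58, was under the lowest signal of a detected probe and gave no bound. The bound of LUM was 1.055-fold lower. The sums of the melanoma list were 7093 to 9064 and 5149 to 6545, where S100A1 and SOX10 rose by 1.09 (SE 0.09, limma adjusted p = 1.64e-08) and 0.53 (SE 0.06, limma adjusted p = 2.89e-06), and NGFR and AXL fell by 0.66 (SE 0.19, limma adjusted p = 0.00901) and 0.21 (SE 0.08, limma adjusted p = 0.0450). NGFR was detected on 3 mock-A375 arrays and on no CD10-A375 array, with a bound of 1.02-fold lower. The AXL call, with groups that overlapped, was lost in 6 of the 8 fits that left out an array, those without CD10-A375 replicates 2, 3 or 4 and without mock-A375 replicates 1, 3 or 4 (adjusted p up to 0.155). All sums add deposited signals without normalization, at the brightest probe of each gene, with negative values set to 0. The undetected endothelial list still had sums of 64.9 to 69.9 in CD10-A375 and 12.8 to 33.3 in mock-A375. Small sums can therefore differ between the groups with no gene detected. The part of such cells in the differences above was not tested, and in a culture fewer cells with a gene and less RNA per cell cannot be told apart.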

How the data were processed

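Whole-genome expression of 8 A375 cultures, 4 CD10-A375 and 4 mock-A375, was measured on Illumina bead arrays. The authors deposited, for each of 47322 probes, a background-subtracted intensity that was not normalized and a detection p-value; the submitters' processing notes name GenomeStudio, version 1, and the methods a later version. The authors also deposited average-normalized intensities, used here as an alternative, with factors of 0.883 to 1.04.

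From the intensities, log2 signals were computed in limma 3.58.1 (R 4.3.3) by normexp background correction based on detection p-values, an offset of 16 and quantile normalization. The offset understates differences of dim probes. Tests covered the 19550 probes detected (p up to 0.01) on any array and left out 27772. They used limma's two-sided moderated test, with a trend on intensity, and p-values adjusted by Benjamini-Hochberg. For lists, each of 11303 genes was read at its brightest tested probe, with its p-value as adjusted over all 19550 tested probes. Where a probe was undetected on all arrays of a group, the bound sets the brighter group's mean against the mean, per array, of the lowest detected signal or the probe's own signal, whichever was higher. Symbols were taken from the platform annotation (30113 probes with 1 symbol, 8 with several, 17201 with none) and updated through RefSeq of GRCh38.p14, the source of the promoters.

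The members and lists were chosen with earlier results of these data known. The text names every member, for each list up to 4 tested genes with the largest absolute difference past the threshold, genes detected on all arrays of 1 group only, the 5 genes most and the 5 least correlated with CD36, and its neighbours; TXNIP, HILPDA and undetected genes were named after their values were seen. In values simulated from these arrays over 19550 probes, changes of 1.5-fold were called by limma at 39 of 67 probes, of 2-fold at 57 of 67 and of 4-fold at 66 of 66, beside 5 false calls. The simulation changed far fewer probes than were called in the data and drew noise independently for each probe. Its rates therefore need not hold for the fit of the data. Alternatives were no normalization between arrays, average normalization, deposited signals with a floor, an offset of 50, no filter or a stricter one, no trend, SAM, the methods' thresholds, a replicate block and leaving out each array. The column headers end in letters, E to H for CD10-A375 and I to L for mock-A375. This order and the group therefore cannot be told apart. Probe sequences and the number of beads behind each value were not used here, and the number of arrays limits the precision.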

Additional observations from a re-analysis of the deposited data

Results flagged for a closer look

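Of 132 groups of 4 arrays examined, 10 held an array that stood apart from the other 3, where chance picks out about 1 in 20. Among the members, LPL read a log2 signal of 8.85 in mock-A375 replicate 2 against 8.94 to 8.95 in the others. An undetected ACSL4 probe read 4.54 in mock-A375 replicate 3 and 4.85 in CD10-A375 replicate 2, and an undetected PPARG probe read 4.65 in mock-A375 replicate 1. Among the other genes, VLDLR read 4.74 in mock-A375 replicate 4, where it was undetected, and APOE read 10.01 in CD10-A375 replicate 1. In CD10-A375 replicate 2, ACADS read 6.20 against 5.77 to 5.83, CAV1 read 10.56 and COL1A2, undetected there, read 4.68. PDGFRB read 6.80 in CD10-A375 replicate 4 against 7.08 in the others.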

How the results depend on the processing

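None of the 12 tested member probes, nor of the 51 other named genes that were refitted, changed direction under any alternative; for TXNIP, HILPDA and the fat cell, macrophage and fibroblast markers other than CIDEC the alternatives were not run. The count of 7162 called probes became 2797 by SAM with adjusted p-values, 3124 by SAM at an unadjusted p under 0.01 and 969 by limma at the methods' thresholds of p and fold. Called member probes numbered 12 in limma's fit and 6 at the methods' thresholds, where ACSL4, PPARG, SCARB1 and ACSL1 are under the fold; SAM called 10. Nothing is read from these counts of member probes. The 72 called genes of the lists became 33, 37 and 14 under the same 3 alternatives. Leaving out 1 array at a time gave 6406 to 6938 probes, 12 to 12 member probes and 65 to 70 genes of the lists. Same-numbered arrays correlated at -0.01, -0.05, -0.19 and 0.03 in their deviations. This gave no sign that the numbers pair the cultures, but so few pairs cannot settle it. The fit with the replicate number as a block called 6635 probes, 12 member probes and 67 genes of the lists. Without normalization between arrays 2578 probes were higher and 3734 lower, against 3386 and 3776. The log2 difference of the first CD36 probe ran from -13.01 to -3.97 over the alternatives, since it depends on the floor or offset given to undetected signals. PLA2G4A lost its call with average-normalized values (adjusted p = 0.0521). SAM with adjusted p-values lost the calls of 7 of the 51 genes: LPCAT2 (adjusted p = 0.0511), PPARD (0.0546), ACADS (0.0676), AGPS (0.0809), DBI (0.244), ACBD6 (0.328) and AXL (0.358). Without normalization between arrays DBI (adjusted p = 0.0577) and ACBD6 (0.068) were lost, and ACBD6 and AXL were also lost without the filter (adjusted p = 0.0923 and 0.0791), without the trend (0.091 and 0.112) and with the replicate block (0.0844 and 0.0666).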

Other observations

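The genes whose brightest probe followed CD36 most closely over the 8 arrays were NOXO1 (Pearson r = 0.9996), H19, MIR99AHG, RGS2 and PCDHB5, and the most opposite were GBP2 (r = -0.9997), TMEM158, PRSS3, FGFBP2 and GRAMD1B. The correlation is a description: the 8 points are 4 arrays of each group, so the difference between groups sets it, and 145 genes had an r above 0.99 and 192 below -0.99. Differences of these genes between the groups are likewise a description, with no test. NOXO1, the organiser of an NADPH oxidase, fell by 4.75 on the log2 scale (SE 0.08) and was detected on all 8 arrays. RGS2, a regulator of G-protein signalling, fell by 3.61 (SE 0.07). The long noncoding RNAs H19 and MIR99AHG were detected in mock-A375 only, at least 7.55-fold and 9.88-fold lower in CD10-A375, and so was the protocadherin PCDHB5, at least 6.77-fold lower. In the other direction, FGFBP2 rose by 3.99 (SE 0.08), TMEM158 by 3.00 (SE 0.06), the interferon-induced GTPase GBP2 by 2.80 (SE 0.06) and GRAMD1B by 2.21 (SE 0.08), all on the log2 scale, and the trypsinogen PRSS3 was detected in CD10-A375 only, at least 6.19-fold higher.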
